A study of Homo sapiens with 42 samples.

Results

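The aldo-keto reductases AKR1B1, AKR1B10, AKR1C1, AKR1C2 and AKR1C3 were followed in A375 cells, a human melanoma line. Each gene was read from its brightest probe set that carries 1 gene symbol, judged by the mean log2 signal over all 42 arrays. By this rule 4 of the 5 genes could be read, out of 19775 genes on the array. AKR1B1 has no probe set of its own in the annotation used and was not analysed here.

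The study had 14 groups of 3 arrays each. Before RNA was taken, cultures of 27000 cells received siRNA for 48 hours and then a treatment for 26 hours. The siRNAs were directed against p53, CDT1 or BRCA1. GL2, commonly an siRNA against firefly luciferase, served as control, so that all groups had been transfected. Cells with p53 siRNA and cells with GL2 siRNA received 650 nM MLN4924, 5 uM Nutlin, 100 nM daunorubicin or 0.065% DMSO, the vehicle, with DMSO arrays in a first and a second set. Cells with CDT1 siRNA or BRCA1 siRNA received MLN4924 or DMSO only. Nothing in the labels says that the 3 arrays of a group come from separate cultures. The p-values therefore describe the spread among arrays, which may be technical.

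Aldo-keto reductases are cytosolic enzymes that use NADPH to turn aldehydes and ketones into alcohols. AKR1B10 reduces retinaldehyde and reactive lipid aldehydes, and is abundant in gut epithelium and in several carcinomas. The AKR1C enzymes reduce steroids and prostaglandins: AKR1C1 inactivates progesterone, AKR1C2 inactivates dihydrotestosterone, and AKR1C3 makes testosterone from androstenedione and forms prostaglandin F2α. AKR1B10 and AKR1C3 are among the enzymes that can reduce the carbonyl group of daunorubicin. AKR1B10 and the AKR1C genes are known targets of the transcription factor NRF2 in human cells. NRF2 is marked for degradation by KEAP1 with the ubiquitin ligase CUL3, which needs the modifier NEDD8, and MLN4924 blocks the enzyme that activates NEDD8. Nutlin frees p53 from MDM2, and daunorubicin damages DNA through topoisomerase II.

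The AKR1C genes lie side by side on chromosome 10, while AKR1B10 lies on chromosome 7. Sequences before their transcription starts are shown because the AKR1C genes moved together in several comparisons. These bases lie before the start and were not compared with the array probes. The sequences come from RefSeq, build GRCh38.p14, and 3 of the 4 measured genes had entries. They give the 250 bases before a start, 5′ to 3′ on the strand of the gene, at chr10:4963165-4963414 on the plus strand for AKR1C1, chr10:5003858-5004107 on the minus strand for AKR1C2 and chr10:5048531-5048780 on the plus strand for AKR1C3. Capitals mark a CCAAT box, here on the opposite strand.
AKR1C1: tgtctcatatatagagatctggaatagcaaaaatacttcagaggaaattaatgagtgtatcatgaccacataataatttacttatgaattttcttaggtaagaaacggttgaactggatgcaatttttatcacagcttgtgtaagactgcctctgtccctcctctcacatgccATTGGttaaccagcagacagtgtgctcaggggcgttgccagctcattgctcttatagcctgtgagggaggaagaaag
AKR1C2: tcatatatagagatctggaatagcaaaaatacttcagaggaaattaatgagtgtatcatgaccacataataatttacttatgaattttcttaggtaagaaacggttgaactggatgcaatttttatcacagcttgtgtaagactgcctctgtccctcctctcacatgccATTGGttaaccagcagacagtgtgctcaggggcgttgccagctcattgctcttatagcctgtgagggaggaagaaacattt
AKR1C3: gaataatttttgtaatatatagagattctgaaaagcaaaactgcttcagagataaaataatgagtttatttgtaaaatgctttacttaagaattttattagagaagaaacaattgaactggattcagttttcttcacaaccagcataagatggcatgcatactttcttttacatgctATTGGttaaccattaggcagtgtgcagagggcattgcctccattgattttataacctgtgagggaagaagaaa
The AKR1C1 and AKR1C2 windows of 300 bases, which run on past the start, were 98.6% identical over 292 aligned bases. AKR1C1 and AKR1C3 were 80.9% identical over 288. Every one of these windows held the CCAAT box (CCAAT or its reverse ATTGG), which 34.6% of 35116 promoter windows of that length held on either strand. The core of the antioxidant response element (TGACNNNGC, either strand), the site type to which NRF2 binds, was found in none of them and in 13.3% of all windows. The AP-1 site (TGACTCA, either strand), which can overlap that core, was likewise absent and stood in 4.95% of all windows. A TATA box (TATAAA, either strand) stood in the AKR1C3 window shown and in 11.5% of all. AKR1C3 has a further start with its own window in the table, at chr10:5094164-5094413 before the start, which was 81.6% identical to the first over 272 bases and held the CCAAT box. These are matches of letters in short windows and carry no information on sites elsewhere.

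Probe sets differed in what they could tell apart. Of 54675 probe sets on the array, 11 name at least 1 of the genes. AKR1B10 and AKR1C3 have 1 each (206561_s_at and 209160_at), with mean signals of 164.2 and 322.0. AKR1C1 has 5 of its own, led by 204151_x_at at a mean signal of 673.5, and AKR1C2 has 3, represented by 209699_x_at at 436.5. Probe set 1555854_at carries both names. The ending x_at marks probes that may bind related transcripts, so the AKR1C1 and AKR1C2 values may each hold signal of the other gene. AKR1C2 has a probe set of similar brightness, 211653_x_at, with a mean signal of 454.4 but a lower mean on the log2 scale. The probe sets 1555855_at, 244266_at, 1555856_s_at, 217626_at and the shared 1555854_at had mean signals of 1.07, 4.96, 14.1, 16.9 and 18.4, below 31.9, the median of all values in the table.

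Values below are log2 signals, with every array centred at its own median gene. A change is the log2 difference ± the standard error of 1 limma fit over all groups. A gene was called where the Benjamini-Hochberg adjusted p over all genes was under 0.05 and the change at least 1.5-fold. The labels do not say which DMSO set belongs to which treatment, so both sets together, weighted equally, were the control of GL2 and of p53 siRNA cells. None of the 4 genes was called between the second and the first DMSO set, with log2 differences of -0.55 to -0.15 in GL2 and -0.26 to -0.14 in p53 siRNA cells. Without centring the median gene itself moved. The shift with MLN4924 was -0.42 for p53 siRNA, -0.18 for GL2, -0.18 for BRCA1 and -0.11 for CDT1 siRNA. In GL2 cells it was 0.17 with Nutlin and 0.21 with daunorubicin. It moved by 0.15 with Nutlin and 0.09 with daunorubicin in p53 siRNA cells, and by under 0.1 between siRNAs under DMSO.

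A pair of libraries went against their labels. BRCA1 stood at 4.93, 5.28 and 8.18 in BRCA1 siRNA cells with MLN4924, against 7.95, 8.24 and 4.70 in GL2 cells with MLN4924. Replicate 3 of either group thus had the BRCA1 level of the other. CDT1 showed the same exchange, at 7.27, 7.31 and 8.61 in the group labelled BRCA1 siRNA and 8.86, 8.81 and 7.27 in the group labelled GL2. Both libraries stayed in the groups of their labels. RNA quality set a further library apart, the first replicate labelled daunorubicin with p53 siRNA. Its 5′ over 3′ signal for actin was 0.0118, where the other 41 arrays had 0.649 to 0.945. Results are therefore given with and without these 3 doubted libraries. Elsewhere the siRNAs matched their labels: under DMSO, CDT1 read 6.51 to 6.77 with CDT1 siRNA against 8.56 to 9.16 with GL2, and BRCA1 read 5.82 to 5.98 with BRCA1 siRNA against 8.52 to 8.95 with GL2. CDKN1A, which p53 activates, read 6.48 to 7.57 with p53 siRNA against 9.01 to 9.25 with GL2. Of 11 melanocyte markers measured, 7 exceeded the median signal, SOX10, MITF and TYR among them. Their summed signal was 736.6 to 880.9 in GL2 cells with MLN4924 against 1843 to 2693 in GL2 cells with DMSO. That of 8 epithelial markers, mostly KRT18, was 3671 to 3866 against 2677 to 3448. Above the median signal were 3 of the 8 epithelial markers, 2 of 5 leukocyte markers (LYZ and ITGAM), 5 of 7 fibroblast markers and 3 of 5 hepatocyte markers (CYP3A4, SERPINA1 and TTR). CDH1, PTPRC and ALB, of the epithelial, leukocyte and hepatocyte lists, had geometric mean signals of 4.88, 5.26 and 5.13. The part of these shifts in the reductase results was not tested. All samples were of 1 cell line, A375, and these marker sums give expression, not a count of cell types. They are sums of the signal before centring. In bulk samples, fewer cells of a type and less RNA per cell cannot be told apart.

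AKR1B10, the reductase of retinaldehyde and lipid aldehydes, had the widest range of the 4 genes, with group means spanning 3.63 on the log2 scale. With MLN4924 it read 8.93, 8.93 and 9.19 in GL2 siRNA cells, against 5.87, 6.03 and 5.76 in the first and 5.55, 5.93 and 5.72 in the second DMSO set. Every treated array lay far above every control array. The change was 3.21 ± 0.12, or 9.25-fold (limma adjusted p = 1.69e-18), and 3.12 without the doubted libraries.

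The other siRNAs left AKR1B10 high with MLN4924, at different levels. With p53 siRNA it read 7.93, 8.01 and 8.05 with MLN4924, against 5.54 to 5.95 on the 6 DMSO arrays, a change of 2.24 ± 0.12 (limma adjusted p = 3.41e-15). CDT1 siRNA cells had 8.41, 8.53 and 8.45 with MLN4924 and 6.09, 6.31 and 6.03 with DMSO, a change of 2.32 ± 0.14 (limma adjusted p = 2.25e-13). BRCA1 siRNA cells had 9.22, 9.11 and 8.76 with MLN4924 and 5.25, 5.70 and 5.74 with DMSO, a change of 3.47 ± 0.14 (limma adjusted p = 7.36e-18). In none of these siRNA backgrounds did MLN4924 and DMSO arrays overlap. The increase was smaller in p53 than in GL2 siRNA cells by a tested difference of -0.97 ± 0.17 (limma adjusted p = 2.0e-04). It was also smaller in CDT1 siRNA cells, by -0.89 ± 0.18 (limma adjusted p = 0.00881). The difference between BRCA1 and GL2 siRNA cells was 0.26 with a 95% interval of -0.11 to 0.63, and 0.48 with an interval of 0.10 to 0.87 without the doubted libraries, called in neither case. With 1 array left out at a time it was 0.11 to 0.40.

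Nutlin and daunorubicin raised AKR1B10 in GL2 cells, while neither change was called in p53 siRNA cells. With Nutlin it read 7.26, 7.40 and 7.36 in GL2 cells, all above the DMSO range of 5.55 to 6.03, and the change was 1.53 ± 0.12, or 2.89-fold (limma adjusted p = 8.89e-12). With daunorubicin it read 7.68, 7.38 and 7.24, again without overlap, and the change was 1.62 ± 0.12, or 3.08-fold (limma adjusted p = 2.80e-12). The summed hepatocyte markers were 350.3 to 492.2 with Nutlin and 346.2 to 469.3 with daunorubicin, against 160.6 to 245.1 with DMSO, and their part was not tested. Under p53 siRNA, Nutlin gave 5.39, 5.44 and 5.38, below all DMSO arrays of that siRNA. The change of -0.35 ± 0.12 was not called (limma adjusted p = 0.0862). Without the doubted libraries it was -0.35, under 1.5-fold and thus not called (limma adjusted p = 0.0277). Daunorubicin gave 5.89, 5.78 and 5.67 there, within the DMSO range, a change of 0.02 (limma adjusted p = 0.919). The difference between p53 and GL2 siRNA cells was itself called, at -1.88 ± 0.17 for Nutlin (limma adjusted p = 5.26e-10) and -1.60 ± 0.17 for daunorubicin (limma adjusted p = 1.62e-08). CDKN1A was given as a measure of p53 output in the same cells. In GL2 cells it read 12.33 to 12.48 with Nutlin, 11.74 to 12.01 with daunorubicin and 9.01 to 9.25 with DMSO. In p53 siRNA cells it read 8.88 to 9.49, 9.88 to 10.05 and 6.48 to 7.57 in the same order. CDKN1A thus rose with both drugs in either background, from a lower DMSO level with p53 siRNA.

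MLN4924 raised AKR1B10 more than the other drugs did at the doses used. In GL2 cells it lay above Nutlin by 1.68 ± 0.14 (limma adjusted p = 3.45e-11) and above daunorubicin by 1.59 ± 0.14 (limma adjusted p = 1.05e-10). The corresponding differences in p53 siRNA cells were 2.59 and 2.22, both called. Of the 4 genes, 3 were called higher against Nutlin and 2 against daunorubicin in GL2 cells, where 18.1% and 19.3% of all genes were (8.95% and 8.83% at the deposited scaling). Without the doubted libraries AKR1C2 was no longer called against Nutlin (0.48), and AKR1C3 was called lower against daunorubicin (-0.62). In cells with p53 siRNA it was 1 and 2, where 22.2% and 20.0% were (5.55% and 5.44% at the deposited scaling). The siRNAs by themselves moved AKR1B10 little under DMSO, with changes of -0.05 for p53, 0.33 for CDT1 and -0.25 for BRCA1 siRNA, none of them called. For CDT1 siRNA, under 1.5-fold, the limma adjusted p was 0.0646, and 0.0272 without the doubted libraries. The order of group means placed the 4 MLN4924 groups at the top, from 9.03 in BRCA1 and 9.02 in GL2, whose arrays overlap, to 8.46 in CDT1 and 8.0 in p53 siRNA cells. Daunorubicin at 7.43 and Nutlin at 7.34 in GL2 cells followed, overlapping each other. The other 8 groups lay between 6.14 and 5.40, and each overlapped its neighbour in the order.

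**Figure D1:**
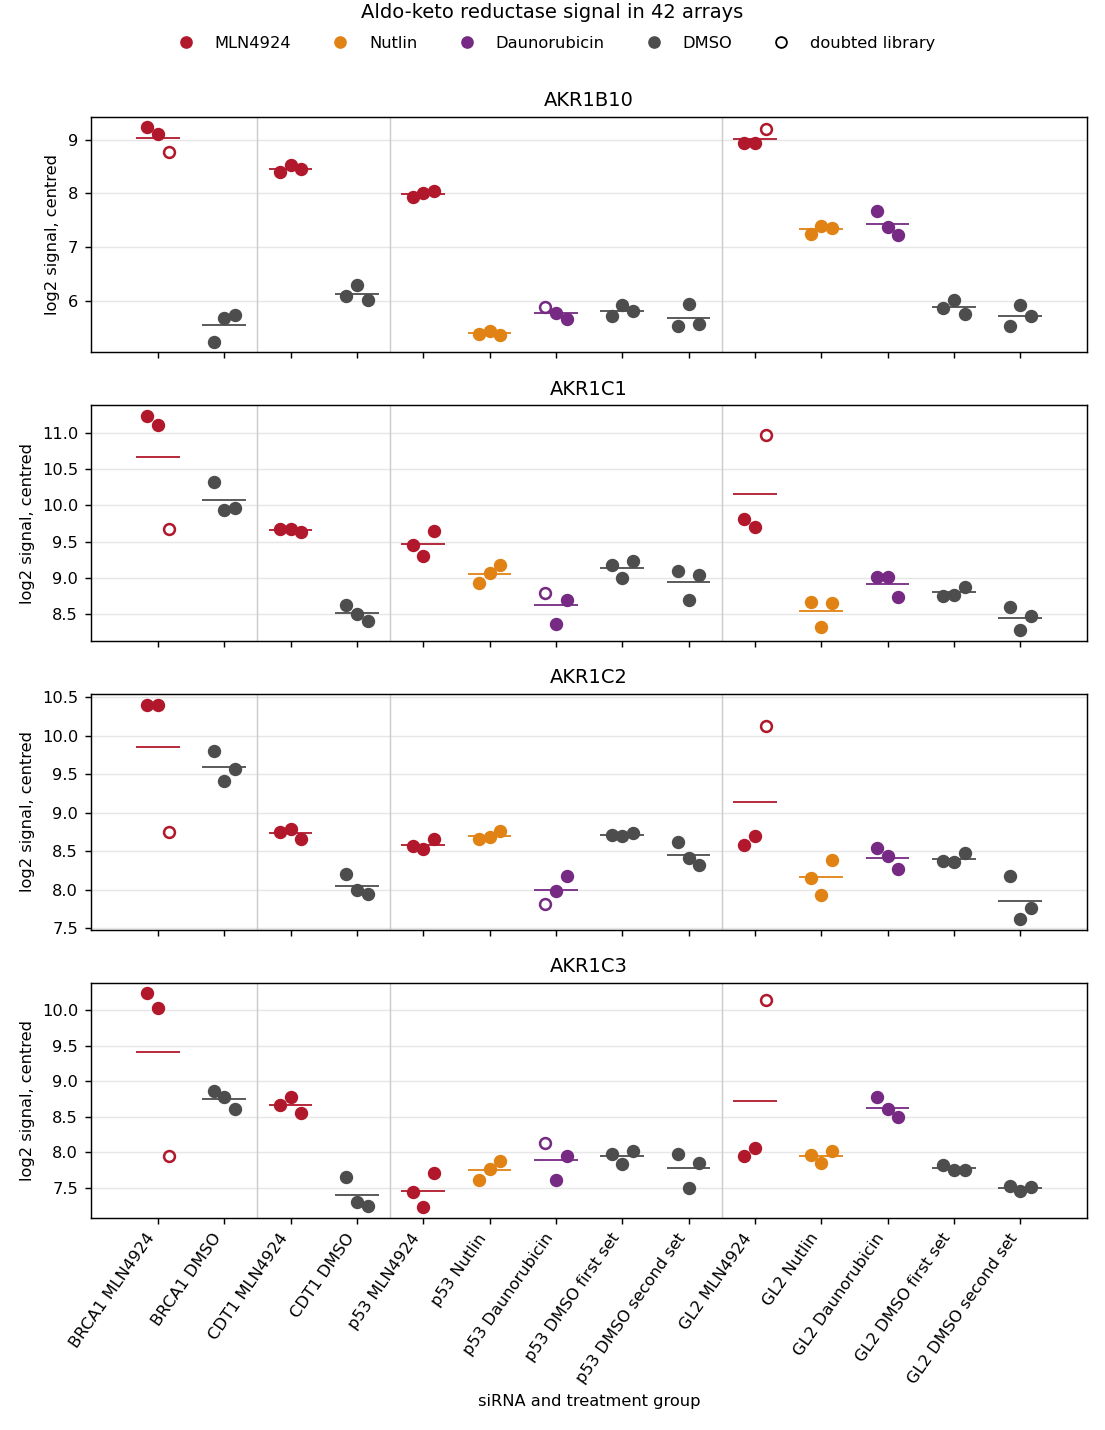
Centred log2 signal of the 4 genes on the vertical axes in each of 42 arrays, by siRNA and treatment group on the horizontal axis. Points are arrays, lines are means of 3 arrays, colours are treatments, and open points are the 3 doubted libraries. AKR1B10 stands at 7.93 to 9.22 in all MLN4924 arrays, while in the AKR1C panels replicate 3 of the groups labelled GL2 and BRCA1 siRNA with MLN4924 lies apart from its group.

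AKR1C1, which inactivates progesterone, rose with MLN4924 in fewer backgrounds and by less. It read 9.81, 9.70 and 10.97 in GL2 cells with MLN4924, against 8.28 to 8.88 on the 6 DMSO arrays. The highest value belongs to the doubted library, and the other MLN4924 arrays also lay above all DMSO arrays. The change was 1.54 ± 0.23 (limma adjusted p = 4.83e-06), and 1.13 ± 0.13 without the doubted libraries. CDT1 siRNA cells had 9.67, 9.67 and 9.64 with MLN4924 and 8.62, 8.5 and 8.41 with DMSO, a change of 1.14 ± 0.27 (limma adjusted p = 0.00271). With p53 siRNA it read 9.45, 9.30 and 9.64 with MLN4924, against 8.69 to 9.23 with DMSO. These arrays did not overlap, but the change of 0.42 ± 0.23 was not called (limma adjusted p = 0.164). Without the doubted libraries it was 0.42 ± 0.11, under 1.5-fold and thus not called (limma adjusted p = 0.00223). BRCA1 siRNA cells had 11.23, 11.11 and 9.67 with MLN4924 and 10.32, 9.93 and 9.96 with DMSO. The doubted library was the lowest of these, and the change of 0.60 ± 0.27 (limma adjusted p = 0.108) became 1.10 ± 0.14 without it (limma adjusted p = 8.11e-07). The increase in p53 siRNA cells was smaller than in GL2 cells by -1.11 ± 0.33 (limma adjusted p = 0.0222), and by -0.71 ± 0.17 without the doubted libraries (limma adjusted p = 0.00393). With 1 array left out at a time, the call was lost without replicate 3 of GL2 or replicate 2 of p53 siRNA with MLN4924, at -0.71 and -1.03.

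AKR1C2, which inactivates dihydrotestosterone, showed a call for MLN4924 in GL2 cells that rested on the doubted library. It read 8.58, 8.70 and 10.12 with MLN4924, against 8.36 to 8.48 in the first and 7.62 to 8.17 in the second DMSO set. The change of 1.01 ± 0.26 (limma adjusted p = 0.00309) was 0.51 ± 0.12 without the doubted libraries, under 1.5-fold and thus not called. In CDT1 siRNA cells it read 8.75, 8.79 and 8.66 with MLN4924 and 8.20, 8.0 and 7.94 with DMSO. These arrays lay apart, and the change of 0.68 was called only without the doubted libraries, whose removal lowers the standard error to 0.12, against 0.30 with them (limma adjusted p = 8.56e-05 and 0.131). AKR1C2 in p53 siRNA cells read 8.56, 8.53 and 8.65 with MLN4924, inside the DMSO range of 8.32 to 8.73. In BRCA1 siRNA cells it read 10.40, 10.40 and 8.75 with MLN4924 and 9.80, 9.41 and 9.56 with DMSO, a change of 0.26 that became 0.81 and called without the doubted library (limma adjusted p = 3.05e-05).

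AKR1C3, which forms testosterone and prostaglandin F2α, gave values that moved with the doubted pair in GL2 and BRCA1 siRNA cells. With MLN4924 it read 7.96, 8.07 and 10.15 in GL2 cells, against 7.75 to 7.83 and 7.45 to 7.53 in the DMSO sets. The change was 1.09 ± 0.34 (limma adjusted p = 0.0159) and fell to 0.37 ± 0.13 without the doubted libraries, which was not called. CDT1 siRNA cells had 8.67, 8.78 and 8.55 with MLN4924 and 7.65, 7.31 and 7.24 with DMSO. This separation of 1.26 was called with the doubted libraries in the fit (limma adjusted p = 0.0258) and without them (limma adjusted p = 1.56e-08). With the doubted libraries kept, it was lost on leaving out any of 5 of its 6 arrays, at changes of 1.19 to 1.32. BRCA1 siRNA cells had 10.24, 10.04 and 7.95 with MLN4924 and 8.86, 8.79 and 8.61 with DMSO, so that the change was 0.66 and not called with all arrays but 1.39 and called without the doubted library (limma adjusted p = 1.79e-08). AKR1C3 in p53 siRNA cells read 7.45, 7.23 and 7.71 with MLN4924, against 7.49 to 8.03 with DMSO. The change of -0.40 was not called (limma adjusted p = 0.41). Without the doubted libraries it was -0.40 ± 0.11, under 1.5-fold and thus not called (limma adjusted p = 0.0041). The difference between p53 and GL2 siRNA cells was -1.49 ± 0.49 (limma adjusted p = 0.0401), and -0.77 ± 0.17 without the doubted libraries (limma adjusted p = 0.00187). With all other arrays kept, leaving out any of 13 of the 18 arrays involved ended the call, at differences of -1.61 to -0.77. Without them, the increase was also larger than in GL2 cells by 0.89 ± 0.18 in CDT1 siRNA cells and by 1.01 ± 0.19 in BRCA1 siRNA cells (limma adjusted p = 0.00373 and 0.00183). With all arrays those differences were 0.18 and -0.43 and not called.

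Daunorubicin raised AKR1C3, which can reduce the drug, in GL2 cells. It read 8.78, 8.62 and 8.5 with daunorubicin, above every DMSO array, and the change was 0.99 ± 0.34 (limma adjusted p = 0.0269; 2.82e-08 without the doubted libraries). With the doubted libraries kept, leaving out any of the 3 daunorubicin arrays ended the call, at changes of 0.92 to 1.06. In the same comparison the summed signal of the leukocyte markers was 535.7 to 720.2 with daunorubicin against 212.4 to 385.9 with DMSO, and that of the hepatocyte markers 346.2 to 469.3 against 160.6 to 245.1. Their part in the result was not tested. With p53 siRNA it read 8.13, 7.62 and 7.95, overlapping the DMSO range of 7.49 to 8.03, and the change was 0.04. The difference between p53 and GL2 siRNA cells was -0.96 ± 0.49 and not called with all arrays (limma adjusted p = 0.18). It was -1.07 ± 0.17 and called without the doubted libraries (limma adjusted p = 1.96e-05). AKR1C1 read 9.01, 9.02 and 8.73 and AKR1C2 8.54, 8.43 and 8.26 with daunorubicin in GL2 cells. Their changes of 0.30 and 0.28 were under 1.5-fold and not called (limma adjusted p = 0.0372 and 0.0345 without the doubted libraries). With p53 siRNA and daunorubicin AKR1C1 read 8.79, 8.37 and 8.70, against 8.69 to 9.23 with DMSO. AKR1C2 read 7.81, 7.98 and 8.18 there, below all DMSO arrays, at 8.32 to 8.73. Their changes of -0.42 and -0.59 were not called (limma adjusted p = 0.214 and 0.0997). Without the doubted libraries both were -0.50, under 1.5-fold and thus not called (limma adjusted p = 0.00368 and 0.00234). Without those libraries the differences from GL2 cells were -0.80 and -0.79, both called lower (limma adjusted p = 6.53e-04 and 4.36e-04). Nutlin changed none of the AKR1C genes past the threshold in GL2 cells, at -0.08 for AKR1C1, 0.03 for AKR1C2 and 0.31 for AKR1C3 (limma adjusted p = 0.652, 0.854 and 0.0322 without the doubted libraries). The changes in p53 siRNA cells were 0.02, 0.12 and -0.11 in the same order, none called.

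BRCA1 siRNA raised all 3 AKR1C genes under DMSO, while AKR1B10 was not called. AKR1C1 read 10.32, 9.93 and 9.96, against 8.28 to 8.88 with GL2, a change of 1.45 ± 0.23, or 2.72-fold (limma adjusted p = 5.35e-05). AKR1C2 read 9.80, 9.41 and 9.56, against 7.62 to 8.48, a change of 1.46 ± 0.26, or 2.76-fold (limma adjusted p = 1.78e-04). AKR1C3 read 8.86, 8.79 and 8.61, against 7.45 to 7.83, a change of 1.11 ± 0.34, or 2.16-fold (limma adjusted p = 0.0254). In each case the lowest BRCA1 siRNA array lay above the highest GL2 array, and no doubted library belongs to these groups. The AKR1C3 call was lost with any 1 of the BRCA1 siRNA arrays left out while the doubted libraries stayed in the fit, at changes of 1.06 to 1.18, and stood without those libraries (limma adjusted p = 1.33e-08). AKR1B10 read 5.25, 5.70 and 5.74, overlapping the GL2 range, with a change of -0.25. In the same comparison the summed signal of 5 leukocyte markers, mostly LYZ, was 727.8 to 882.4 with BRCA1 siRNA against 212.4 to 385.9 with GL2, and that of 7 fibroblast markers 899.2 to 1049 against 428.4 to 528.5. PTPRC, which defines leukocytes, had signals of 0.90 to 16.7 over all arrays. Their part in the AKR1C result was not tested. The p53 siRNA gave AKR1C1 9.0 to 9.23 in the first and 8.69 to 9.10 in the second DMSO set, a change of 0.41. AKR1C2 changed by 0.45, and neither was called (limma adjusted p = 0.192 and 0.198). Without the doubted libraries both changes kept their size, under 1.5-fold and thus not called (limma adjusted p = 0.00134 and 2.73e-04). CDT1 siRNA moved the AKR1C genes by -0.24 to -0.08, none called.

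Against the background of all genes, the counts of the 4 genes were as follows. MLN4924 in GL2 cells called 4 of 4 higher, where 10.2% of all genes were called higher (5.69% at the deposited scaling), and 2 of 4 without the doubted libraries, where 11.3% were. With p53 siRNA 1 of 4 was called higher, with 17.8% of all genes higher (5.33% at the deposited scaling). In CDT1 siRNA cells it was 3 of 4, with 5.93% of all genes higher (4.08% at the deposited scaling), and 4 of 4 without the doubted libraries, with 6.55%. In BRCA1 siRNA cells it was 1 of 4, with 9.79% of all genes higher (5.06% at the deposited scaling), and 4 of 4 without the doubted libraries, with 9.6%. AKR1B10 was the member called in every one of these. Nutlin called 1 of 4 higher in GL2 cells, with 7.91% of all genes higher (12.9% at the deposited scaling). Daunorubicin called 2 of 4 there, with 7.73% higher (14.2% at the deposited scaling). BRCA1 siRNA called 3 of 4, with 4.11% higher (4.73% at the deposited scaling).

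With all arrays, limma called 0 of the 4 genes in 5 comparisons. They were Nutlin in p53 siRNA cells, where 1.15% of all genes were called, daunorubicin in p53 siRNA cells with 13.9%, p53 siRNA under DMSO with 3.98%, CDT1 siRNA under DMSO with 6.3% and the MLN4924 difference of BRCA1 from GL2 siRNA cells with 1.86%. At an unadjusted p under 0.05, 1 of the 4 genes was lower in the Nutlin and 1 in the daunorubicin comparison. By the same measure 2 were higher with p53 siRNA and 1 with CDT1 siRNA, and 1 was lower in the MLN4924 difference. The shares above are at the threshold of a call, and no share of all genes is given for this looser threshold. For the difference between p53 and GL2 siRNA cells, 3 of 4 were called lower for MLN4924 (3.41% of all genes lower, 7.19% at the deposited scaling), 1 of 4 for Nutlin (6.02%) and 1 of 4 for daunorubicin (7.18%, or 9.48% at the deposited scaling). Without the doubted libraries the count for MLN4924 stayed at 3, with 3.57% of all genes lower. Without the doubted libraries daunorubicin had 4 of 4 called lower, with 7.97% of all genes. For MLN4924 between CDT1 and GL2 siRNA cells 1 of 4 was called lower, with 0.698% of all genes (0.673% at the deposited scaling). AKR1C3 was called higher without the doubted libraries for CDT1 and for BRCA1 siRNA, where 1.54% and 1.14% of all genes were.

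**Figure D2:**
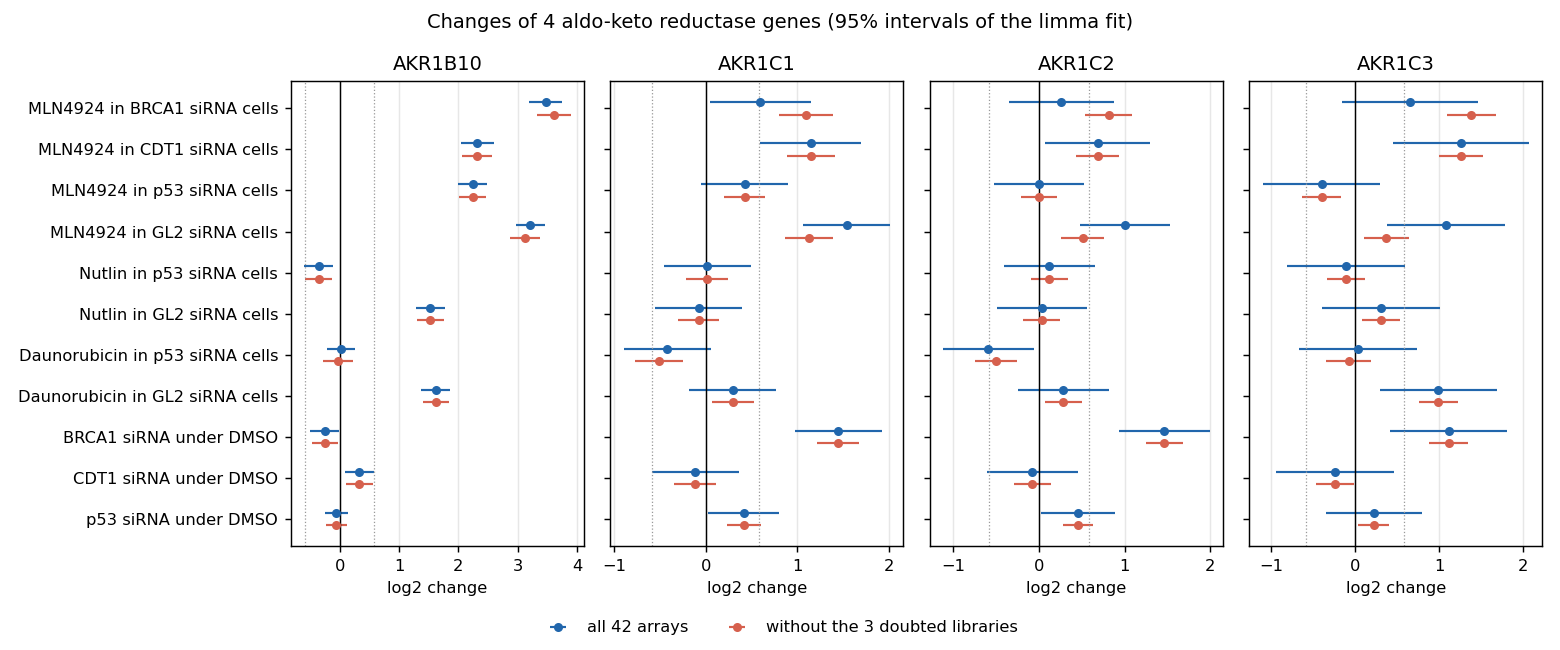
Log2 change of the 4 genes (horizontal axes) in 11 comparisons (vertical axis), with 95% intervals of the limma fit, for all 42 arrays and without the 3 doubted libraries. Dotted lines mark 1.5-fold. AKR1B10 keeps nearly the same values with and without these libraries, while AKR1C3 with MLN4924 is 1.09 and 0.37 in GL2 and 0.66 and 1.39 in BRCA1 siRNA cells, with all arrays and without the libraries.

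Other probe sets of the AKR1C genes were read alongside, without the doubted libraries. With BRCA1 siRNA, 216594_x_at of AKR1C1 changed by 1.63, 211653_x_at of AKR1C2 by 1.49, and the dim 1555854_at, which names both, by 2.03, all called higher. With MLN4924 in GL2 cells the same probe sets changed by 0.66, 1.22 and 2.30, all called higher. In CDT1 siRNA cells they changed by 0.60, 1.33 and 2.90, and the first of these was not called. AKR1C2 thus differed between its bright probe sets in GL2 cells with MLN4924, at 0.51 by 209699_x_at and 1.22 by 211653_x_at. With MLN4924 and p53 siRNA these probe sets gave 0.00 and 0.51, neither called. The other dim probe sets differed from one another: 1555855_at and 1555856_s_at changed by -0.45 and -0.58 with MLN4924 in GL2 cells, neither called, while 217626_at changed by 1.33 with MLN4924 in BRCA1 siRNA cells, called higher (1.17 and not called with all arrays). For AKR1C2, 244266_at was called higher with Nutlin in GL2 cells, by 2.11 at a mean signal of 4.96.

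**Figure D3:**
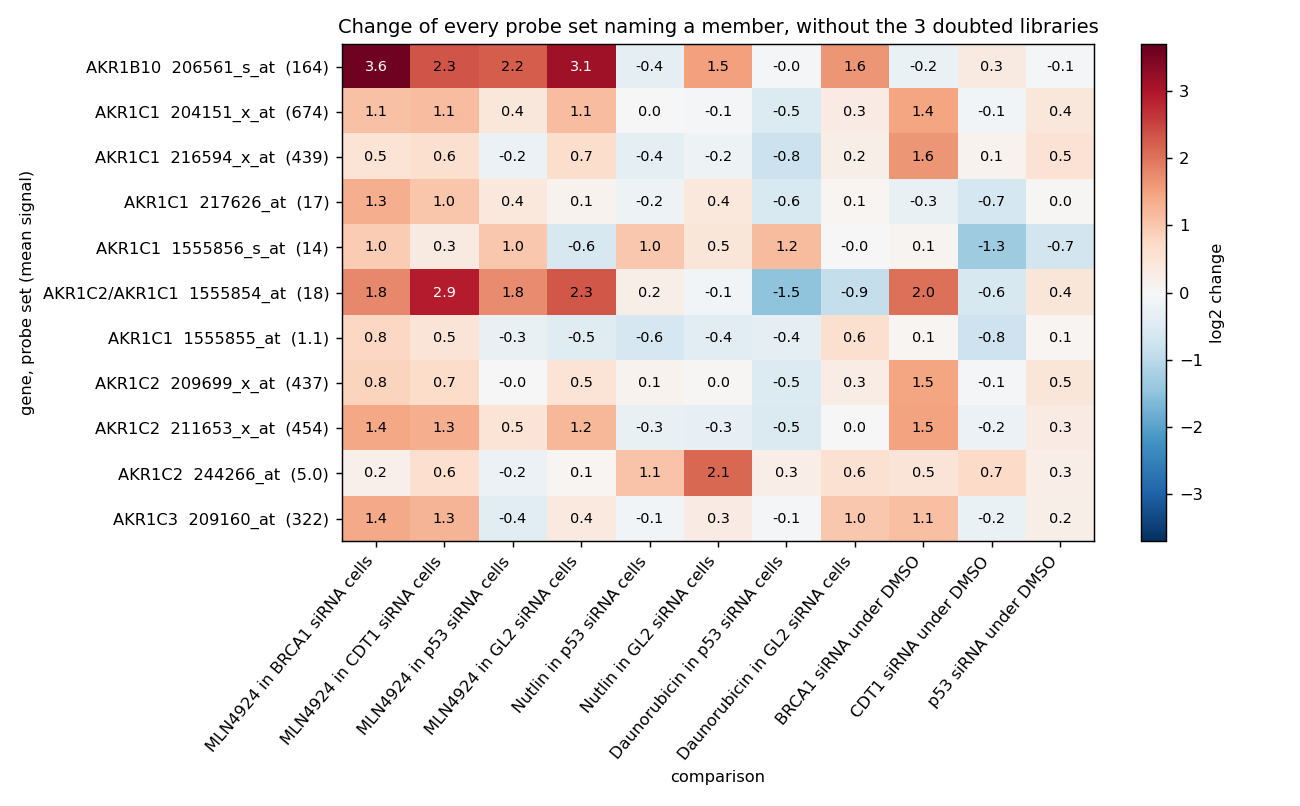
Log2 change without the doubted libraries for each of the 11 probe sets that name a measured gene (rows, with mean signal in brackets) in 11 comparisons (columns). Colour and printed values give the change. The bright probe sets of AKR1C1 and AKR1C2 were all higher with BRCA1 siRNA, by 1.45 to 1.63, as was the dim shared 1555854_at, by 2.03, while the other dim ones changed by -0.27 to 0.47.

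Among themselves, the AKR1C genes varied together over the groups. Over the 14 group means, Pearson's r was 0.95 between AKR1C1 and AKR1C2, 0.81 between AKR1C1 and AKR1C3 and 0.80 between AKR1C2 and AKR1C3. With AKR1B10 it was 0.63 for AKR1C1, 0.44 for AKR1C2 and 0.61 for AKR1C3. The points share cell line, platform and scaling, and AKR1C1 and AKR1C2 may share probe signal. In the order of group means, neighbours were closer than the larger of their SDs for 8 of 13 steps in AKR1B10, 10 in AKR1C1 and 11 in each of AKR1C2 and AKR1C3. The highest mean belonged to BRCA1 siRNA cells with MLN4924 for every one of the 4 genes, at 9.03 for AKR1B10, 10.67 for AKR1C1, 9.85 for AKR1C2 and 9.41 for AKR1C3. The lowest was p53 siRNA with Nutlin for AKR1B10 (5.40), the second GL2 DMSO set for AKR1C1 (8.45) and AKR1C2 (7.85), and CDT1 siRNA with DMSO for AKR1C3 (7.40).

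**Figure D4:**
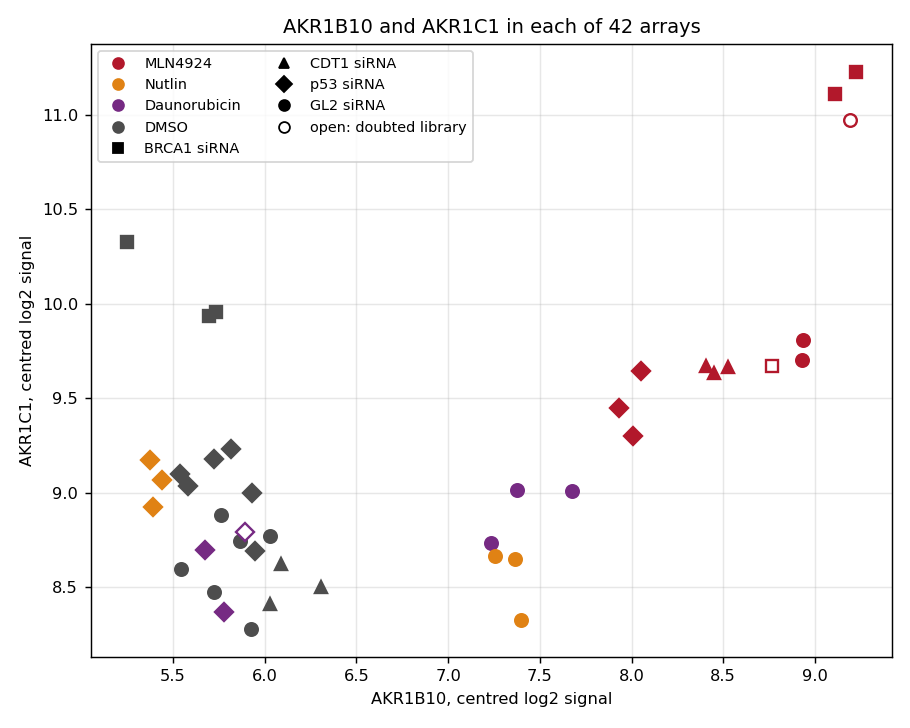
AKR1B10 (horizontal axis) against AKR1C1 (vertical axis), both as centred log2 signal, in each of 42 arrays, with treatments as colours, siRNAs as shapes and the 3 doubted libraries as open symbols. BRCA1 siRNA arrays with DMSO lie at 9.93 to 10.32 in AKR1C1 and 5.25 to 5.74 in AKR1B10, and Nutlin and daunorubicin arrays of GL2 cells at 7.24 to 7.68 in AKR1B10 with AKR1C1 at 8.33 to 9.02.

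The genes whose group means were most like those of each reductase were named among 14107 genes with group means spanning at least 1 on the log2 scale. For AKR1B10 they were ZBTB17, COQ8A and YBX3, each with r = 0.96 over the 14 groups. For AKR1C1 they were AKR1C2, PRR9 (r = 0.89) and SPTB (r = 0.89), and for AKR1C2 they were AKR1C1, SPTB (r = 0.85) and PRR9 (r = 0.85). For AKR1C3 they were DOCK6 (r = 0.89), BBS12 (r = 0.86) and BRD10 (r = 0.86). Without the doubted libraries ZBTB17 ranked 12, BBS12 13 and BRD10 32 for their genes, the other named genes within the first 6.

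Other NRF2 targets were read from a list of 34 genes, 32 of them measured, that holds none of the 4 reductases. MLN4924 called 16 higher and 1 lower in GL2 cells, the lower one being CBR3, a carbonyl reductase (-0.996). Of all genes, 10.2% were called higher and 7.06% lower there. The median change of the list was 0.60, against 0.08 over all genes tested. The 4 with the largest moderated statistic were NMRAL2P, a transcribed pseudogene (2.80), SRXN1, which restores oxidised peroxiredoxins (2.06), TRIM16, a ubiquitin ligase (1.55), and TXNRD1, the cytosolic thioredoxin reductase (1.28). In p53 siRNA cells 16 were called higher and 1 lower, with a median of 0.66 against 0.20 over all genes. CDT1 siRNA cells had 10 higher and 1 lower and BRCA1 siRNA cells 16 higher and 1 lower, with medians of 0.38 and 0.63, against 0.10 and 0.16 over all genes. The shares of all genes called lower with MLN4924 were 7.6% with p53, 4.63% with CDT1 and 7.15% with BRCA1 siRNA. Those called higher were 17.8%, 5.93% and 9.79% in the same order. CBR3 was the gene called lower with CDT1 (-0.79) and with BRCA1 siRNA (-0.65). It changed by -0.47 with p53 siRNA and was not called. NQO1, a quinone reductase often used to read NRF2, changed by 0.44 in GL2 cells, under 1.5-fold and not called. With Nutlin in GL2 cells 4 of the 32 were higher and 5 lower. Among those lower were GCLM, a subunit of the enzyme that starts glutathione synthesis (-1.0), and CBR3 (-1.25). Of all genes, 7.91% were higher and 10.8% lower with Nutlin, and 7.73% higher and 11.4% lower with daunorubicin. With daunorubicin in GL2 cells 2 were higher and 3 lower, GCLM (-0.91) and CBR3 (-1.07) among those lower. Daunorubicin with p53 siRNA called 0 higher and 7 lower in limma, where 7.38% of all genes were lower. At an unadjusted p under 0.05, for which no share of all genes is given, 4 of the list were higher and 15 lower. BRCA1 siRNA called 3 higher, SLC7A11 (0.79) and MAFG (0.63) among them, and 3 lower, with GCLM at -0.96. In that comparison 4.11% of all genes were higher and 4.37% lower.

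Genes that regulate NRF2 formed a list of 15, with 14 measured. MLN4924 called 3 higher in GL2 cells, MAFF, a partner in NRF2 binding (1.78), KEAP1 (0.93) and BACH1, a repressor at the same sites (0.74), and 0 lower in limma, with 10 higher and 0 lower at an unadjusted p under 0.05. Of all genes, 10.2% were called higher and 7.06% lower in that comparison. Such shares are at the threshold of a call, and none is given for the unadjusted counts of this list. BACH1 was not called without the doubted libraries (0.57). With p53 siRNA 5 were called higher and 0 lower by limma (11 and 0 at an unadjusted p under 0.05), among them MAFF (2.71), KEAP1 (1.26) and CUL3 (0.74). The shares of all genes were 17.8% higher and 7.6% lower with MLN4924 and p53 siRNA. NFE2L2, the gene of NRF2, changed by 0.25 with MLN4924 in GL2 cells, not called, and by 0.72 in p53 siRNA cells, called higher. Daunorubicin in GL2 cells called 3 of the 14 lower and 0 higher by limma (8 and 2 at an unadjusted p under 0.05). Of all genes, 11.4% were called lower and 7.73% higher there. The 3 lower were NAE1, a subunit of the NEDD8-activating enzyme (-1.01), CUL3 (-0.78) and CAND1 (-0.72).

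Other enzymes of carbonyl reduction did not move as one group. Of 28 listed, 24 were measured, and MLN4924 in GL2 cells called 3 higher and 4 lower, where 10.2% and 7.06% of all genes were. CBR1, a carbonyl reductase that also reduces daunorubicin, changed by 0.77, and RDH13, a retinol dehydrogenase, by 0.68, both called higher. DHRS3, which reduces retinaldehyde, changed by -1.73 and DCXR, which reduces xylulose, by -0.95, both called lower. CBR3 was also called lower, at -0.996. With daunorubicin in GL2 cells 1 of the list was called higher, ALDH2 (0.86), a dehydrogenase that oxidises aldehydes rather than reducing them. Called lower were 4, among them DCXR (-0.99), CBR3 (-1.07) and AKR7A2, an aflatoxin aldehyde reductase (-0.62). CBR1 changed by -0.44 there and was not called. Of all genes, 7.73% were called higher and 11.4% lower with daunorubicin in GL2 cells. AKR1C4, the liver member of the family, and AKR1D1, the steroid 5β-reductase, changed by 0.44 and -0.41 with MLN4924 in GL2 cells, neither called.

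Steroid and prostaglandin metabolism gave a list of 32 genes, 29 of them measured. MLN4924 in GL2 cells called 3 higher and 2 lower, shares near the 10.2% and 7.06% of all genes. Among them were PTGR1, which reduces prostaglandin metabolites (1.58), and PTGES, a prostaglandin E synthase (-2.0). BRCA1 siRNA under DMSO called 1 of the 29 higher and 2 lower, shares near the 4.11% and 4.37% of all genes. It lowered PTGES (-1.57) and SRD5A1, a steroid 5α-reductase (-0.93), and raised PTGS2, the inducible cyclooxygenase (2.37). The median change of the list there was -0.05, against -0.05 over all genes. The median change of the list with MLN4924 in GL2 cells was 0.11, against 0.08 over all genes.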

How the data were processed

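Each of 42 RNA samples of A375 cells was hybridised to an Affymetrix array. The deposited table holds a linear signal intensity per probe set. Per the submitters' processing notes, Expression Console was used, with no version given. Detection calls and scan dates were not used here, so no background or scan batch could be tested. Here, 147 values of 0 were raised to 0.1 before taking log2. Gene symbols came from GEO's annotation of the platform, 41091 with 1 symbol, 1801 with several and 11721 with none. Each gene was read from its brightest single-symbol probe set, and arrays were centred on their median gene.

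All 14 groups entered 1 fit in limma 3.58.1 (R 4.3.3) with 28 residual degrees of freedom and 20 contrasts, differences between changes included, called at an adjusted p under 0.05 and 1.5-fold. The fit was checked on simulated data. The number of arrays limits the precision, and no 2 arrays were duplicates. The reductases, the gene lists and the 3 doubted libraries were chosen with earlier results of these data known. Named genes are the members, CDT1, BRCA1 and CDKN1A as checks, the 3 genes most like each member by r, and up to 4 per list by moderated statistic for MLN4924 in GL2 cells (for carbonyl reduction also daunorubicin in GL2 cells). List genes named for other comparisons, CBR3 with MLN4924, and NQO1, NFE2L2, AKR1C4 and AKR1D1, fall outside that rule and were chosen after their values were seen. Alternatives were other scaling, probe sets, controls, spread models, thresholds and left-out arrays.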

Additional observations from a re-analysis of the deposited data

Results flagged for a closer look

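A tested difference between siRNA backgrounds under the same treatment set 6 results apart, all from limma with adjustment over all genes. The MLN4924 change in p53 less that in GL2 siRNA cells was -0.97 for AKR1B10, -1.11 for AKR1C1 and -1.49 for AKR1C3. The MLN4924 change in CDT1 less that in GL2 siRNA cells was -0.89 for AKR1B10. For AKR1B10 the change in p53 less that in GL2 siRNA cells was -1.88 with Nutlin and -1.60 with daunorubicin. Without the doubted libraries the AKR1C1 and AKR1C3 differences were -0.71 and -0.77, both still called.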

How the results depend on the processing

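All 20 AKR1B10 results kept their call in every alternative run. For 1 of them, daunorubicin in p53 siRNA cells (0.02, not called), the sign turned under 6 alternatives, to -0.04 at the lowest. The number of the 4 genes called moved as follows. At the deposited scaling, MLN4924 less daunorubicin in p53 siRNA cells had 1 (2 in the main result), and likewise with quantile normalization, probe sets averaged, or only the groups compared. All genes called higher in that comparison numbered 3962 in the main result and 1076 at the deposited scaling. With quantile normalization they numbered 1896, and 1016 with only the groups compared. With quantile normalization the daunorubicin difference between p53 and GL2 siRNA cells had 3 (main 1), against 2 with dim genes left out or AKR1C1 read by 216594_x_at, and 4 with only the groups compared, array weights or without the doubted libraries. The mean of all probe sets gave 1 for MLN4924 less Nutlin (main 3) and less daunorubicin (main 2) in GL2 cells, with 1 less daunorubicin also from only the groups compared. Daunorubicin in p53 siRNA cells had 1 (main 0) with dim genes left out, only the groups compared, array weights, AKR1C2 by 211653_x_at or AKR1C1 by 216594_x_at. With only the groups compared, 555 of all genes were called higher and 595 lower there (main 1290 and 1460). MLN4924 in GL2 cells had 2 (main 4) against the first DMSO set, with only the groups compared, or without the doubted libraries. The first DMSO set also gave 1 for daunorubicin in GL2 cells (main 2) and 1 for MLN4924, p53 less GL2 siRNA (main 3). MLN4924 in BRCA1 siRNA cells had 4 (main 1) with array weights or without the doubted libraries. Without these, the MLN4924 difference from GL2 had 2 for CDT1 (main 1) and 1 for BRCA1 siRNA (main 0). Reading AKR1C1 by 1555855_at, 1555856_s_at or 217626_at gave 1 for MLN4924 less daunorubicin in GL2 and in p53 siRNA cells, 216594_x_at gave 1 in p53 siRNA cells, and AKR1C2 by 244266_at gave 2 for Nutlin in GL2 cells (main 1).

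Signs turned for AKR1C3 without the doubted libraries, to 1.01 for the MLN4924 difference of BRCA1 from GL2 siRNA cells and -0.62 for MLN4924 less daunorubicin in GL2 cells, both then called. Values called neither way also turned without them: the MLN4924 difference from GL2 for AKR1C2 with BRCA1 siRNA (0.30, main -0.74) and with CDT1 siRNA (0.17, main -0.32), for AKR1C1 with CDT1 siRNA (0.01, main -0.39), and daunorubicin in p53 siRNA cells for AKR1C3 (-0.08, main 0.04) and AKR1B10 (-0.03). Signs of AKR1C1 turned by 1555855_at, at -0.23 with MLN4924 in GL2 cells and -0.82 for MLN4924 less daunorubicin there. By 1555856_s_at, AKR1C1 gave -0.35 with MLN4924 in GL2 cells, 1.35 for the difference of p53 from GL2 siRNA cells, and -0.80 for MLN4924 less Nutlin there. Less daunorubicin it gave -0.34 in GL2 and -0.30 in p53 siRNA cells. By 217626_at AKR1C1 gave -0.27 with BRCA1 siRNA, and AKR1C2 by 244266_at gave -1.94 for MLN4924 less Nutlin in GL2 cells. The cause was not tested.

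Leaving out each array in turn gave 2 to 4 genes for MLN4924 in GL2 cells (2 without the library labelled GL2 with MLN4924, replicate 3), 1 to 4 in BRCA1 siRNA cells (4 without its replicate 3) and 2 to 3 in CDT1 siRNA cells. MLN4924, p53 less GL2 siRNA, had 1 to 4, lowest without replicate 3 of GL2 or replicate 2 of p53 siRNA with MLN4924. BRCA1 siRNA had 2 to 3, daunorubicin in GL2 cells 1 to 2 whichever daunorubicin array was left out, MLN4924 less daunorubicin 2 to 3 in GL2 and 1 to 2 in p53 siRNA cells, and MLN4924 less Nutlin in GL2 cells 2 to 4. Replicate numbers did not pair the arrays: same-numbered deviations had a median r of -0.0044, 4 of 273 pairs over 0.1. With the replicate block AKR1B10 with MLN4924 in GL2 cells stayed at 3.21, and no count of members moved.

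Counts of all genes called moved by over 1.5 times most often at the deposited scaling, for 21 of 40 counts. There MLN4924 called 1125 higher and 2152 lower in GL2 cells (main 2010 and 1397) and 1054 and 3450 in p53 siRNA cells (main 3529 and 1503). Nutlin in p53 siRNA cells called 8 higher and 3 lower against the first DMSO set and 299 and 443 against the second (main 83 and 145). With no fold threshold 18 of 40 moved, with dim genes left out 11, with quantile normalization 10, with only the groups compared 9, without the doubted libraries 7, and under the other settings 0 to 6. The signal of dim probe sets limits what the AKR1C1 and AKR1C2 alternatives can show.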
